A study of Mus musculus with 14 samples.

Results

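The genes described here are 38 mouse genes of the response driven by the transcription factor Atf4: Atf4 itself, 4 further transcription factors, the sensor kinase Eif2ak3, 5 feedback and effector genes, 5 enzymes of amino acid and one-carbon metabolism, 3 amino acid transporters and 19 cytosolic tRNA synthetases. They were taken by name, and the set was chosen by the measured values of Atf4, which was lower in macrophages of one pre-treatment; the question put to the other genes is whether they were lower with it. All 38 were among the 24556 genes of the deposited table. A gene was kept for testing when 3 or more libraries had an unlogged value of at least 10, or 3.32 as a log2 value, which 36 of the 38 genes and 11886 genes in all did. Because Atf4 chose the set, its own differences are given as a description with no test, and 35 genes are counted below.

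RNA was sequenced from cells that magnetic beads against F4/80, a surface protein of mouse macrophages, had pulled out of tumours in Balb/c mice. The tumours grew from 4T1 cells, an established mouse mammary carcinoma line, which had been kept for 5 days in culture with the solvent DMSO or with 5 µM GSK269962A before they were placed in the fat pad. Only the tumour cells met the compound, and they did so in culture; no allele or further treatment is given for the mice of either arm. The groups are DMSO day 8 and GSK day 8 with 3 libraries each, and DMSO day 14 and GSK day 14 with 4 libraries each. The labels number the libraries without stating that each came from its own mouse, so p-values measure the spread between these samples, which may be partly technical.

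ATF4 is the main effector of the integrated stress response, in which kinases that sense misfolded protein, lack of amino acids, lack of haem or viral RNA phosphorylate the initiation factor eIF2. General translation then slows while Atf4 mRNA, whose upstream reading frames hold it back in unstressed cells, is translated more, so the level of Atf4 mRNA is not a measure of ATF4 protein. ATF4 pairs with C/EBP proteins on composite promoter elements and switches on genes for amino acid synthesis, amino acid uptake, tRNA charging and feedback on the kinases. Aminoacyl-tRNA synthetases join each amino acid to its tRNA, and many of the cytosolic ones are known targets of ATF4.

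A core of the C/EBP-ATF composite element, TGATGNAA, was searched on both strands of the promoter windows that RefSeq gives for build GRCm38.p6, each from 250 bases before to 50 bases after a gene's start. Of the 38 genes, 29 had a window, and 9 of these (31%) held the motif: Trib3, Asns, Chac1, Slc7a11, Aars, Gars, Yars, Tars and Iars. The motif was in the window of 4.51% of 27025 mouse genes and of 2.94% of the 8645 kept genes with a window. No window was held for Slc7a5, Eif4ebp1, Nars, Wars, Lars, Cars, Vars, Hars or Rars. Slc7a11 and Aars each held it at 2 places. The 4 holders below show the element in each role that has one, an enzyme, a transporter, a feedback gene and a synthetase, with the motif on either strand in capitals; they are read 5′ to 3′ on the strand of the gene, and annotated 5′ untranslated sequence was left out beyond the bases next to a motif.
Asns, chr6:7693214-7693243, minus strand: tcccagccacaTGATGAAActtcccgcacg
Slc7a11, chr3:50443615-50443863, minus strand: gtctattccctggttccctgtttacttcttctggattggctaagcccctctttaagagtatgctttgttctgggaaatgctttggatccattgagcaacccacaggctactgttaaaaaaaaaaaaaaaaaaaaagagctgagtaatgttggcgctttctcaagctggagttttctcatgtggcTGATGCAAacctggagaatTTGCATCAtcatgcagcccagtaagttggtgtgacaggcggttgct
Trib3, chr2:152344028-152344057, minus strand: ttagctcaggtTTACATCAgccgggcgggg
Tars, chr15:11399666-11399908, minus strand: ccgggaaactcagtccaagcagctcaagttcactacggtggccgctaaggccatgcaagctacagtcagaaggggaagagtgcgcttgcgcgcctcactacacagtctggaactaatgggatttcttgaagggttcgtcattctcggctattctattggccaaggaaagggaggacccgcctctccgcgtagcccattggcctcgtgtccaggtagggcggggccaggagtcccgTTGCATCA
In Asns the motif begins 23 bases before the RefSeq start and in Tars 15 bases before it. In Trib3 it begins at base 15 after the RefSeq start, and the only motifs of Yars and Iars also lie after theirs. The pair in Slc7a11 begins 66 and 47 bases before the start, in opposite orientations. A match of letters is a description of the sequence and not evidence of a bound site.

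The isolated fractions expressed all 16 pan-macrophage markers of the list above the filter, and 4 of 13 T and NK cell, 3 of 8 B and plasma cell, 5 of 11 neutrophil, 6 of 10 fibroblast, 5 of 9 dendritic cell and 9 of 9 endothelial markers in the table. Of the 16 pan-macrophage markers, 5 were higher and 3 lower with GSK on day 14 (limma adjusted p under 0.05). On that day 10.8% of all kept genes passed this threshold. In the mean difference of both days 3 were higher and 2 lower, where 14.5% of all kept genes passed. On day 8, 0 of the 16 passed. Adgre1, which encodes the bead antigen, passed on day 14 and in the mean. The part of these differences in the results below was not tested. Markers of 4T1 epithelium, 12 of 17 above the filter, had a mean log2 value of 6.03 ± 0.40 in DMSO day 8, 6.55 ± 0.71 in GSK day 8, 5.37 ± 0.17 in DMSO day 14 and 5.06 ± 0.11 in GSK day 14 (SD, n = 3, 3, 4 and 4). A pair of overlapping ribosomal RNA genes also divided the libraries: AY036118 was the higher of the pair in 1 of 3 DMSO day 8, 2 of 3 GSK day 8, 2 of 4 DMSO day 14 and 4 of 4 GSK day 14 libraries, and Gm42418 in the others. In bulk fractions, fewer cells that express a gene and less of its RNA per cell cannot be told apart, and this holds for every difference below. Values are on the authors' log2 scale, differences are GSK minus DMSO or day 14 minus day 8 on that scale, and no counts were used here, so depth is unknown.

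Atf4 (ENSMUSG00000042406, chromosome 15 from 80255184 to 80257541, GRCm38) was lower in GSK than in DMSO macrophages on both days. On day 8 its log2 values were 12.57, 12.68 and 12.45 in the DMSO libraries and 12.30, 11.78 and 11.53 in the GSK libraries. On day 14 they were 12.35, 12.32, 11.49 and 12.11 with DMSO and 11.44, 11.46, 11.29 and 11.04 with GSK. The pre-treatments did not overlap on either day, although DMSO day 14 library 3, at 11.49, lay just above the highest GSK library of that day, at 11.46. The difference was -0.70 (SE 0.23) on day 8 and -0.76 (SE 0.20) on day 14, with a mean of both days of -0.73 (SE 0.15), which is 1.66-fold lower. Atf4 was also lower on day 14 than on day 8, by a difference of -0.50 within DMSO and -0.56 within GSK. Among libraries with AY036118 high, Atf4 on day 8 was lower in 2 GSK libraries than in 1 DMSO library, by a difference of -1.03. The day 14 difference among such libraries was -0.61 (4 GSK and 2 DMSO libraries). With Gm42418 high, the day 8 values lay closer, at 12.57 and 12.45 in 2 DMSO libraries and 12.30 in 1 GSK library. On day 14 Gm42418 was the higher gene in DMSO libraries only, so that kind of library gave no difference there. Over all settings tried, the mean difference of Atf4 lay between -0.84 and -0.61.

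**Figure D1:**
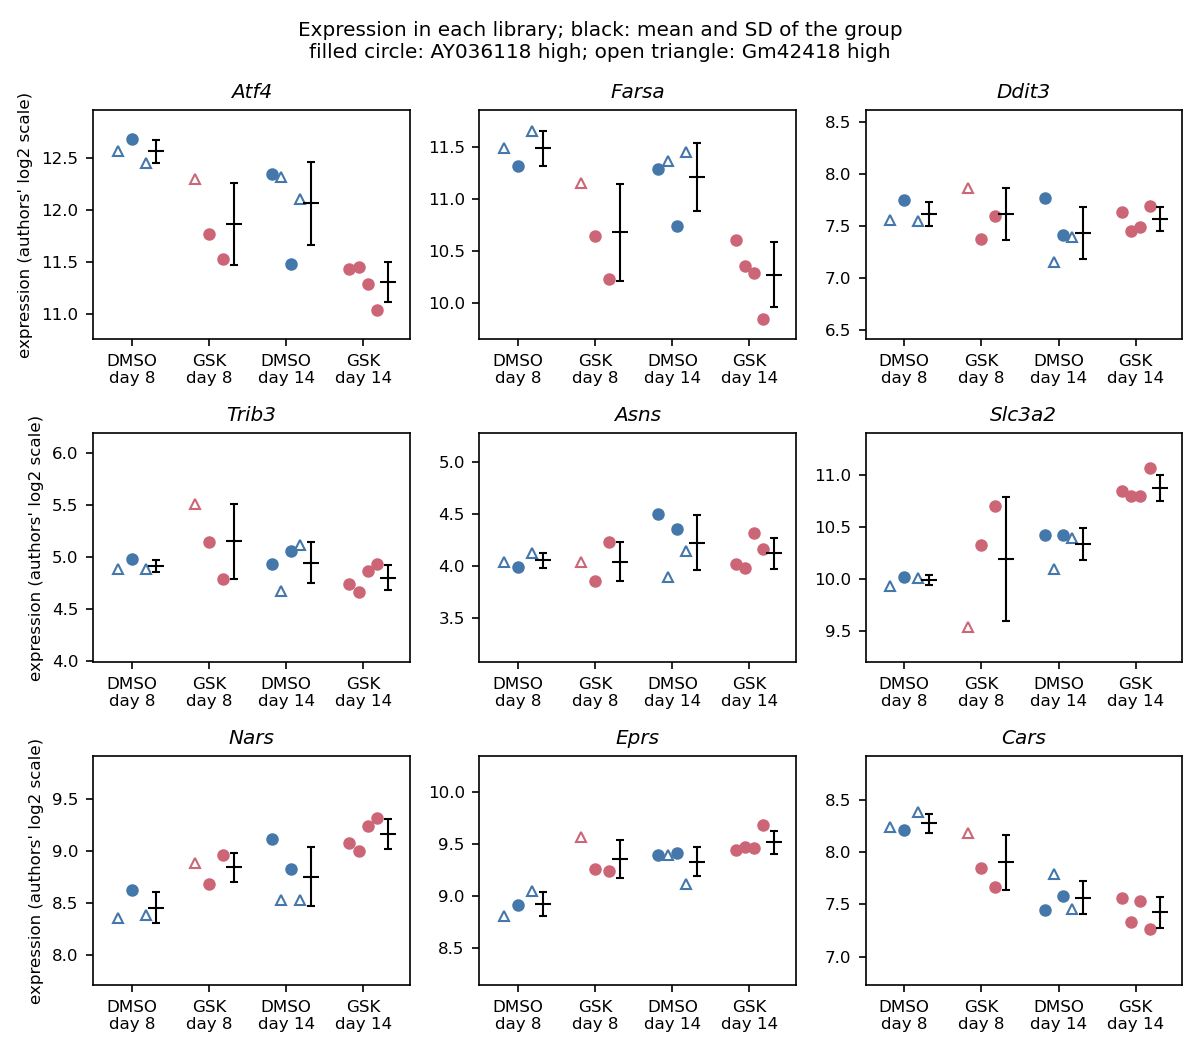
Log2 expression (y axis, the authors' scale; all panels span the same number of log2 units) of 9 genes in each of 14 libraries by group (x axis), with the mean and SD of each group in black; filled circles are libraries with AY036118 high and open triangles libraries with Gm42418 high. Atf4 and Farsa are lower with GSK on both days without overlap of the groups, while Ddit3, Trib3 and Asns overlap between the pre-treatments on both days.

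Few of the other 35 genes passed the test in any comparison, and those that did went both ways. On day 8, 0 of 35 passed the threshold of 0.05 (limma, Benjamini-Hochberg adjusted over 11886 genes), where 0.194% of all kept genes did (0.0589% higher, 0.135% lower), and 7 of 35 had an unadjusted p under 0.05, against 16.3% of all kept genes. On day 14, 1 of 35 passed, the synthetase gene Farsa, which fell; 10.8% of all kept genes passed on that day, 5.1% higher and 5.73% lower. In the mean of both days 3 of 35 passed, Farsa lower and the synthetase genes Nars and Eprs higher, against 14.5% of all kept genes (6.73% higher, 7.77% lower). On day 14 and in the mean of both days, a smaller share of these genes passed than of all kept genes; that gap was not tested. At an unadjusted p under 0.05 the counts were 8 of 35 on day 14 and 12 of 35 in the mean, against 27.3% and 30.6% of all kept genes. Without GSK day 14 library 4, 0 of 35 and 221 of all kept genes passed on day 14, in place of 1 and 1287.

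By direction, 16 of the 35 differences were positive on day 8, 20 on day 14 and 20 in the mean of both days. Their median was -0.01 on day 8, 0.10 on day 14 and 0.04 in the mean, beside medians over all kept genes of 0.02, 0.02 and 0.03. Libraries of the pre-treatments did not overlap for 6 of the 35 on day 8, 3 higher and 3 lower with GSK, where 16.2% of all kept genes did not overlap (8.01% higher, 8.14% lower). On day 14 the count was 8, 5 higher and 3 lower, against 22% of all kept genes (11.2% higher, 10.7% lower). On both days at once it was 3, Psat1 and Eprs higher and Farsa lower, against 4.81% of all kept genes (1.86% higher, 2.95% lower). The difference on day 14 was also set against that on day 8: 0 of 35 passed this test, where 0.00841% of all kept genes did (limma), and 2 of 35 had an unadjusted p under 0.05, against 8.30% of all kept genes. These were Lars at 0.62 (SE 0.27) and Farsb at -0.59 (SE 0.27), with adjusted p of 0.561 and 0.595.

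Among the transcription factors, Atf5, a relative of Atf4 that is itself translated under stress, was the nearest to the threshold. Its values on day 14 were 8.98, 8.60, 8.72 and 8.99 with DMSO and 8.46, 8.43, 8.54 and 8.25 with GSK. These did not overlap, but the difference of -0.40 (SE 0.13) did not pass (limma adjusted p = 0.0647). On day 8 the Atf5 groups overlapped, and the mean difference of both days was -0.30 (SE 0.10, limma adjusted p = 0.0581). That mean passed with a filter minimum of 50, unweighted TMM, library weights or the epithelial covariate, and when any of a few single libraries was left out. It did not pass with no filter, quantile normalisation, no trend or the replicate block.

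Ddit3, which encodes the stress factor CHOP and is a classical ATF4 target, showed little difference. Its day 14 values were 7.77, 7.15, 7.41 and 7.39 with DMSO and 7.64, 7.45, 7.49 and 7.69 with GSK, and those of day 8 overlapped as well. The mean difference was 0.07 with a 95% interval from -0.18 to 0.31 (limma adjusted p = 0.737). Ddit3 overlaps Mars on the opposite strand, and whether reads were counted by strand is not given in the sources used here, so reads of the 2 genes may not be separated. Cebpg, the C/EBP partner of ATF4, had a mean difference of 0.18 (SE 0.16). Xbp1, the target of the IRE1 arm of the unfolded protein response, had -0.11 (SE 0.26) on day 8 and 0.47 (SE 0.23) on day 14. The kinase gene Eif2ak3 (PERK), which sends the endoplasmic reticulum branch into this pathway, had a mean difference of -0.09 (SE 0.15). None of these 3 passed in any of the GSK against DMSO comparisons (lowest limma adjusted p = 0.189, Xbp1 on day 14).

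None of the 4 kept feedback and effector genes passed, 2 with a positive and 2 with a negative mean difference. Ppp1r15a (GADD34), which recruits the phosphatase that resets eIF2, had the widest range over the 14 libraries of all 36 genes. It read 10.83, 9.58 and 10.12 in DMSO day 8 and 8.72, 10.13 and 9.99 in GSK day 8, then 8.87, 10.62, 10.24 and 10.47 in DMSO day 14 and 9.98, 9.92, 9.25 and 9.06 in GSK day 14. The pre-treatments overlapped on both days, and the mean difference of -0.53 had an interval from -1.16 to 0.09 (limma adjusted p = 0.239).

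Trib3, a pseudokinase that restrains ATF4 and CHOP, read 4.88, 4.98 and 4.88 in DMSO and 5.51, 5.15 and 4.79 in GSK libraries of day 8. It overlapped on day 14 too, and its mean difference was 0.05 (interval -0.21 to 0.30; adjusted p = 0.829, limma). Sesn2, an inhibitor of mTORC1, had a mean difference of -0.28 (SE 0.12; adjusted p = 0.130), and Eif4ebp1, a repressor of cap-dependent translation, had 0.23 (SE 0.11; adjusted p = 0.173). Chac1, a glutathione-degrading enzyme that ATF4 induces strongly in many cells, was not above the filter in any library, with a highest value of 0.55.

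Enzymes of amino acid synthesis split in direction, and none passed. Asns, asparagine synthetase, whose motif is printed above, is a standard readout of this pathway. Its values lay between 3.99 and 4.13 in DMSO day 8, 3.85 and 4.23 in GSK day 8, 3.89 and 4.50 in DMSO day 14 and 3.98 and 4.31 in GSK day 14. The groups overlapped on both days, and the mean difference of -0.06 had an interval from -0.29 to 0.17 (limma adjusted p = 0.763). How the authors' transformation treats low values is not given in the sources used here; if it draws them together, differences of genes with low values such as Asns, Slc7a5 and Trib3 are understated and their intervals too narrow, which was not tested.

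Psat1, a serine synthesis enzyme, was higher with GSK in all libraries of each day. It read 6.69, 6.84 and 6.41 with DMSO and 7.32, 6.88 and 6.89 with GSK on day 8, then 6.89, 6.83, 7.11 and 7.10 with DMSO and 7.20, 7.13, 7.14 and 7.21 with GSK on day 14. The gap on day 14 was narrow, and the mean difference of 0.29 (SE 0.11) did not pass (limma adjusted p = 0.0861). The mitochondrial folate enzymes pointed the other way: Mthfd2 had a mean difference of -0.45 (SE 0.15; adjusted p = 0.0601) and Shmt2 of -0.26 (SE 0.12; adjusted p = 0.146). Groups overlapped on both days for both genes. Phgdh, the first enzyme of serine synthesis, was left out by the filter with 2 libraries above it and the third highest at 3.23; Slc7a5 stood just inside it with the third highest library at 3.91. Of the words of 31 bases in Phgdh transcripts, 56.3% are shared with other genes.

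The transporters had positive mean differences, and none passed. Slc3a2, the heavy chain that carries Slc7a5 and Slc7a11 to the membrane, read 10.42, 10.10, 10.42 and 10.39 in DMSO and 10.84, 10.80, 10.80 and 11.06 in GSK libraries of day 14. No libraries overlapped on that day, and the difference of 0.54 (SE 0.19) did not pass (limma adjusted p = 0.0717). Its day 8 GSK values of 9.54, 10.32 and 10.70 enclosed the DMSO values of 9.93, 10.02 and 10.01. Slc7a11, the cystine transporter with the paired motif printed above, had a mean difference of 0.16 (SE 0.11), and Slc7a5, the large neutral amino acid transporter, of 0.06 (SE 0.09). Neither passed, with limma adjusted p of 0.355 and 0.712.

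**Figure D2:**
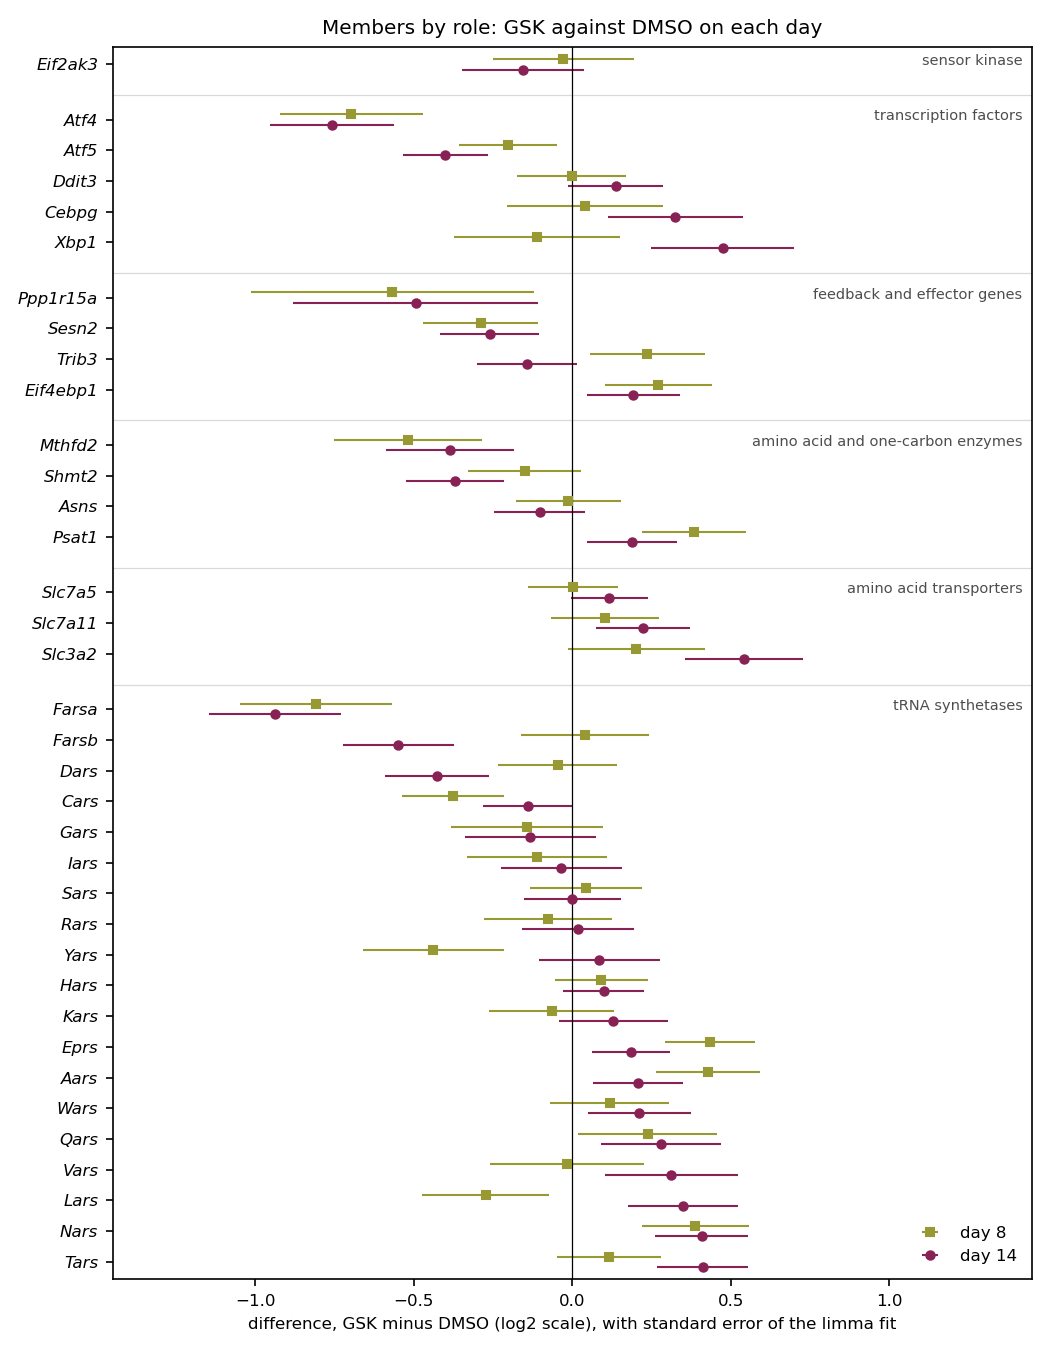
Difference GSK minus DMSO (x axis, log2) of the 36 kept genes by role (y axis) on day 8 (squares) and day 14 (circles), with the SE of the limma fit as lines. Atf4 and Farsa lie farthest to the left on both days, and the other genes lie on both sides of 0.

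Among the 19 synthetases, Farsa stood apart. Farsa (ENSMUSG00000003808, chromosome 8 from 84856989 to 84869257, GRCm38) encodes the catalytic alpha subunit of phenylalanyl-tRNA synthetase. Its log2 values on day 8 were 11.49, 11.32 and 11.66 with DMSO and 11.16, 10.65 and 10.23 with GSK. On day 14 they were 11.29, 11.37, 10.74 and 11.46 with DMSO and 10.60, 10.35, 10.29 and 9.85 with GSK. No GSK library reached a DMSO library on either day, and DMSO day 14 library 3, the lowest DMSO library for Atf4, was also the lowest for Farsa. The difference was -0.81 (SE 0.24; limma adjusted p = 0.122) on day 8 and -0.94 (SE 0.21; adjusted p = 0.0136) on day 14. In the mean of both days Farsa fell by 0.87 on the log2 scale (SE 0.16), 1.83-fold, with an adjusted p of 0.00333.

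On day 14 the call for Farsa was lost without DMSO library 2 (-0.89, adjusted p = 0.0513) or without GSK library 4 (-0.80, adjusted p = 0.0655). It was also lost when the ribosomal RNA split entered as a term (-0.72, adjusted p = 0.0511) and among libraries with AY036118 high (-0.74, adjusted p = 0.0616, limma); the mean of both days passed under every setting, 27 of 27. Farsb, the beta subunit of the same enzyme, read 9.99, 9.95, 10.07 and 9.89 with DMSO and 9.42, 9.57, 9.44 and 9.28 with GSK on day 14. Those groups did not overlap, and the difference of -0.55 (SE 0.18) missed the threshold (limma adjusted p = 0.0553). Among libraries with AY036118 high it passed, at -0.61 (adjusted p = 0.0248), and it did so in 8 of 28 settings. On day 8 the difference of Farsb was 0.04 (SE 0.20), with overlapping groups.

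Nars and Eprs rose in the mean of both days. Nars (ENSMUSG00000024587, chromosome 18 from 64499647 to 64516652) encodes asparaginyl-tRNA synthetase. It read 8.36, 8.63 and 8.39 with DMSO and 8.89, 8.69 and 8.96 with GSK on day 8, then 9.12, 8.53, 8.83 and 8.53 with DMSO and 9.08, 9.01, 9.24 and 9.32 with GSK on day 14. On day 14 only DMSO library 1 reached into the GSK range. The mean difference of Nars was 0.40 (SE 0.11, 1.32-fold; limma adjusted p = 0.0278). Among libraries with AY036118 high it was 0.19 (adjusted p = 0.327), where DMSO day 8 has 1 library, whose spread is taken from the remaining groups. The call for Nars was lost when 1 library was left out in 7 of 14 cases, with an adjusted p of at most 0.0799, reached without GSK day 8 library 3. The other 6 were DMSO day 8 libraries 1 and 3, DMSO day 14 libraries 2 and 4 and GSK day 14 libraries 3 and 4. Nars also did not pass with no filter or when the ribosomal RNA split entered as a term.

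Eprs (ENSMUSG00000026615, chromosome 1 from 185363044 to 185428360), a bifunctional enzyme for glutamate and proline, read 8.81, 8.91 and 9.05 with DMSO and 9.57, 9.27 and 9.25 with GSK on day 8. On day 14 it read 9.40, 9.40, 9.42 and 9.12 with DMSO and 9.44, 9.48, 9.47 and 9.69 with GSK, so that the highest DMSO library lay just under the lowest GSK library. Groups did not overlap on either day, and the mean difference was 0.31 (SE 0.09, 1.24-fold; limma adjusted p = 0.0380). The call for Eprs held only without DMSO day 8 library 3, DMSO day 14 library 1 or DMSO day 14 library 3; it was lost in the other 11 of 14 cases, with an adjusted p of up to 0.0828, and among libraries with AY036118 high (0.23, adjusted p = 0.161). It was also lost with no filter (adjusted p = 0.0698), with the ribosomal RNA term (0.0810) and with the GC trend removed (0.0676). In GSK day 14 libraries, mitochondrially encoded transcripts, a list of 13 genes with a mean log2 value of 10.53 ± 0.31, stood above the 9.87 ± 0.26 of DMSO day 14 (SD, n = 4 each); the part of this in the results for the synthetases was not tested.

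The remaining 16 synthetases did not pass in any GSK against DMSO comparison. Aars, for alanine, came nearest in the mean of both days at 0.32 (SE 0.11; limma adjusted p = 0.0606). Its values lay from 7.11 to 7.44 in DMSO day 8, 7.43 to 7.99 in GSK day 8, 7.58 to 7.99 in DMSO day 14 and 7.85 to 7.98 in GSK day 14. Tars, for threonine, had 0.41 (SE 0.14; adjusted p = 0.0730) on day 14 and Dars, for aspartate, had -0.43 (SE 0.16; adjusted p = 0.10) on that day. The mean differences of Gars, Wars, Yars, Sars, Lars, Iars, Kars, Cars, Vars, Hars, Qars and Rars, which charge glycine, tryptophan, tyrosine, serine, leucine, isoleucine, lysine, cysteine, valine, histidine, glutamine and arginine tRNAs, lay between -0.26 for Cars and 0.26 for Qars. Of Aars and Iars transcript words, 14.4% and 14.7% are shared with other genes, which could blur their counts.

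The synthetases were also divided by whether they are commonly named as ATF4 targets. Of 11 commonly named (Aars, Cars, Eprs, Gars, Iars, Lars, Nars, Sars, Tars, Wars and Yars), 2 rose and 0 fell in the mean of both days, with a median of 0.04. Of the 8 less commonly named (Dars, Farsa, Farsb, Hars, Kars, Qars, Rars and Vars), 0 rose and 1 fell, with a median of 0.00. Over all kept genes 6.73% rose and 7.77% fell in this comparison, with a median of 0.03, so that counts this small say little about either division.

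**Figure D3:**
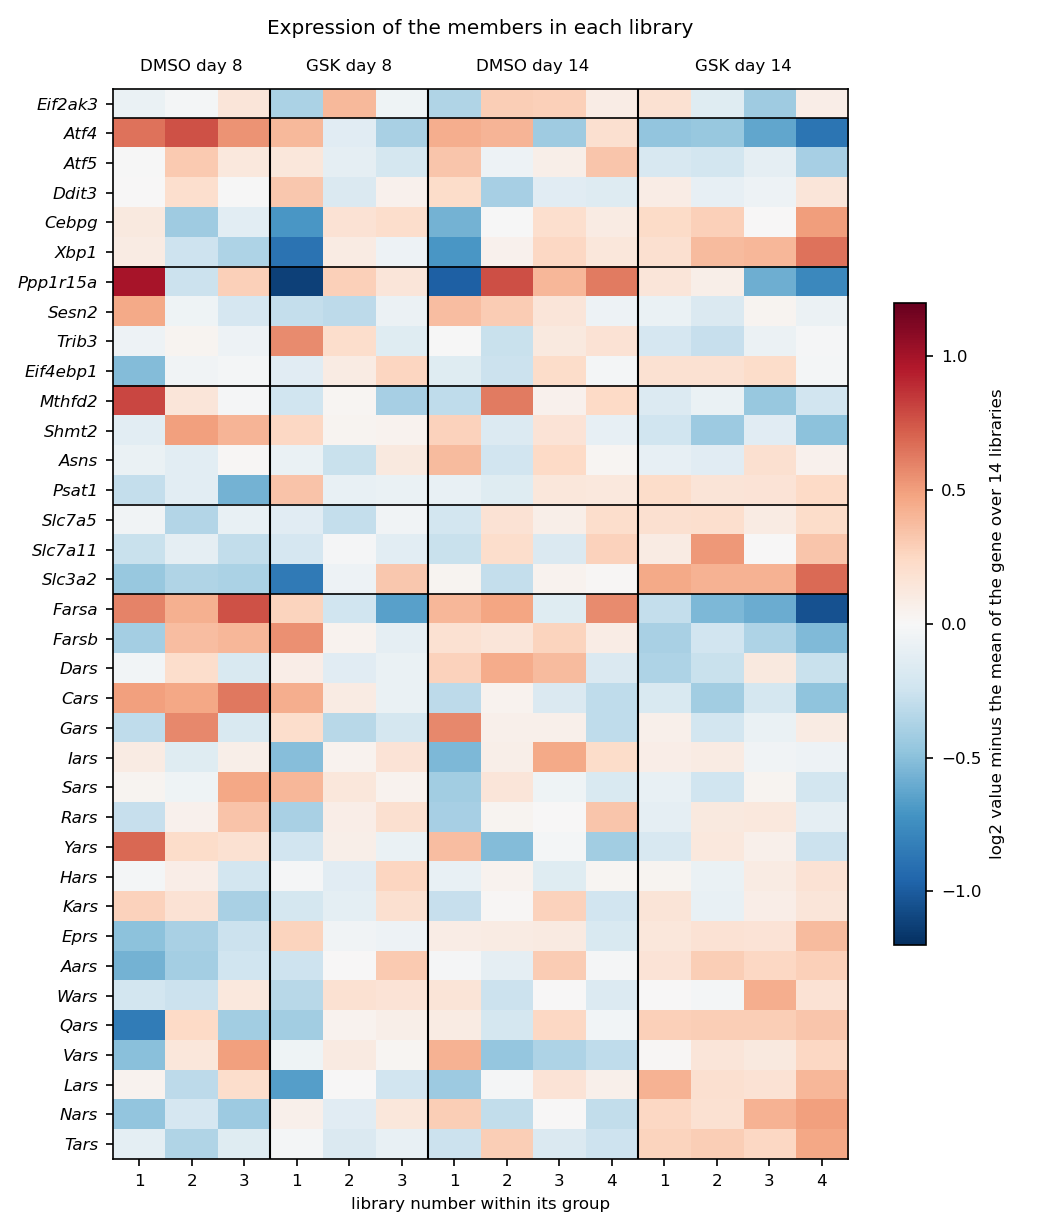
Log2 value minus the gene's mean over 14 libraries (colour) for the 36 kept genes (rows, by role) in each library (columns, by group). Atf4 and Farsa have their highest group means in DMSO day 8 and their lowest in GSK day 14, while Ppp1r15a, Xbp1 and Cebpg have their 2 lowest values in GSK day 8 library 1 and DMSO day 14 library 1.

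The heatmap of values by library shows where the spread within groups lay. GSK day 8 library 1 read 8.72 for Ppp1r15a, 7.03 for Xbp1, 7.06 for Cebpg and 9.54 for Slc3a2, each below the other 2 libraries of its group. DMSO day 14 library 1 read 8.87, 7.22 and 7.19 for Ppp1r15a, Xbp1 and Cebpg, again the lowest of its group. These 2 libraries were of different kinds in the ribosomal RNA split, Gm42418 high in the first and AY036118 high in the second.

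Between days, 1 of 35 genes passed in DMSO tumours, against 0.824% of all kept genes (0.303% higher, 0.522% lower): Cars, cysteinyl-tRNA synthetase, fell. Days did not overlap for 4 of the 35 there, 3 higher and 1 lower on day 14, where 10.1% of all kept genes did not (4.1% higher, 5.98% lower). Cars (ENSMUSG00000010755, chromosome 7 from 143557230 to 143600090) read 8.25, 8.21 and 8.39 on day 8 and 7.44, 7.79, 7.58 and 7.45 on day 14, without overlap. The difference was -0.72 (SE 0.15, 1.64-fold lower; limma adjusted p = 0.0375). In the same interval the mean of the 4T1 epithelium markers dropped from 6.03 to 5.37. Endothelial markers had a median difference of -0.61 (0 of 9 positive, 6 with an unadjusted p under 0.05). For fibroblast markers it was -0.39 (0 of 6 positive, 4 with an unadjusted p under 0.05). Of all kept genes 50.6% were positive and 15.4% had an unadjusted limma p under 0.05, with a median of 0.005. The part of these markers in the result was not tested. With the epithelial mean as a covariate, the difference of Cars was -0.55 (limma adjusted p = 0.313). Under that covariate 3 of all kept genes passed in this comparison, in place of 98. The call for Cars was lost in 10 of 14 cases with 1 library left out, with a limma adjusted p of up to 0.0991. It held without DMSO day 8 library 2, GSK day 8 library 1, GSK day 8 library 3 or DMSO day 14 library 2. In GSK tumours Cars read 8.19, 7.85 and 7.67 on day 8 and 7.57, 7.33, 7.54 and 7.27 on day 14, a difference of -0.48 (SE 0.15) that did not pass (adjusted p = 0.0630).

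In GSK tumours 0 of 35 genes passed between day 14 and day 8, where 7.01% of all kept genes did (3.05% higher, 3.95% lower), and 9 of 35 had an unadjusted p under 0.05, against 24.9% of all kept genes (limma). The lowest adjusted p was 0.0501, for Slc3a2, with a difference of 0.69 (SE 0.20). With the epithelial mean as a covariate the sign for Slc3a2 turned to -0.08, and 8 of the 12 kept epithelial markers fell in this comparison. Under that covariate 1 of all kept genes passed, in place of 833. Xbp1 had 0.69 (SE 0.24; adjusted p = 0.0939) and Lars 0.59 (SE 0.19; adjusted p = 0.0663). Groups did not overlap for 12 of the 35, 8 higher and 4 lower on day 14, against 30.3% of all kept genes (15.1% higher, 15.2% lower). All 3 transporters were among those higher without overlap. These comparisons use the same libraries as the ones between pre-treatments, so they are not separate evidence.

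Whether genes followed Atf4 from library to library was asked within groups. Each value was taken as its deviation from its group mean, so that no difference between groups entered, and libraries were permuted within the 4 groups in all 20736 arrangements (exact, two-sided). The ribosomal RNA split and the mean of the 4T1 epithelium markers also vary within groups. They were not removed, and their part in the correlations was not tested. Of 35 genes, 17 had a positive Pearson correlation with Atf4 (48.6%, against 48.2% of the other 11885 kept genes), with a median r of -0.05 (all genes -0.02). After adjustment over those 11885 genes 0 of 35 passed by Pearson or Spearman correlation, and 0 of all kept genes did. With 20736 arrangements, the smallest p that can arise is too large for a gene to pass alone after that adjustment. The 0 calls therefore cannot decide whether single genes followed Atf4. At an unadjusted exact permutation p under 0.05, 5 of 35 passed by Pearson (14.3%, against 15.0% of all kept genes) and 6 by Spearman, against 13.7% of all kept genes.

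Farsa had the highest correlation, with r = 0.83 (exact permutation p = 0.00950, adjusted 0.224; rho = 0.71, p = 0.0309, adjusted 0.332). Without the 2 libraries whose Atf4 deviation lay farthest from the median, DMSO day 14 library 3 and GSK day 8 library 1, r for Farsa was 0.70. Of all kept genes, 4.77% had an r above 0.7, and Farsa was the only one of the 35. Aars had the lowest, r = -0.84 (exact permutation p = 0.00670, adjusted 0.222; rho = -0.73, p = 0.0146, adjusted 0.310), and -0.70 without those 2 libraries. Further negative values were those of Cebpg (-0.74), Iars (-0.73), Slc3a2 (-0.70), Xbp1 (-0.70) and Lars (-0.67). Of these, Cebpg, Slc3a2 and Lars had an unadjusted exact permutation p under 0.05, and none passed after adjustment. The share of all kept genes with an r as low as these was not counted. Ddit3 (0.26), Trib3 (0.15) and Asns (-0.35) lay between.

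**Figure D4:**
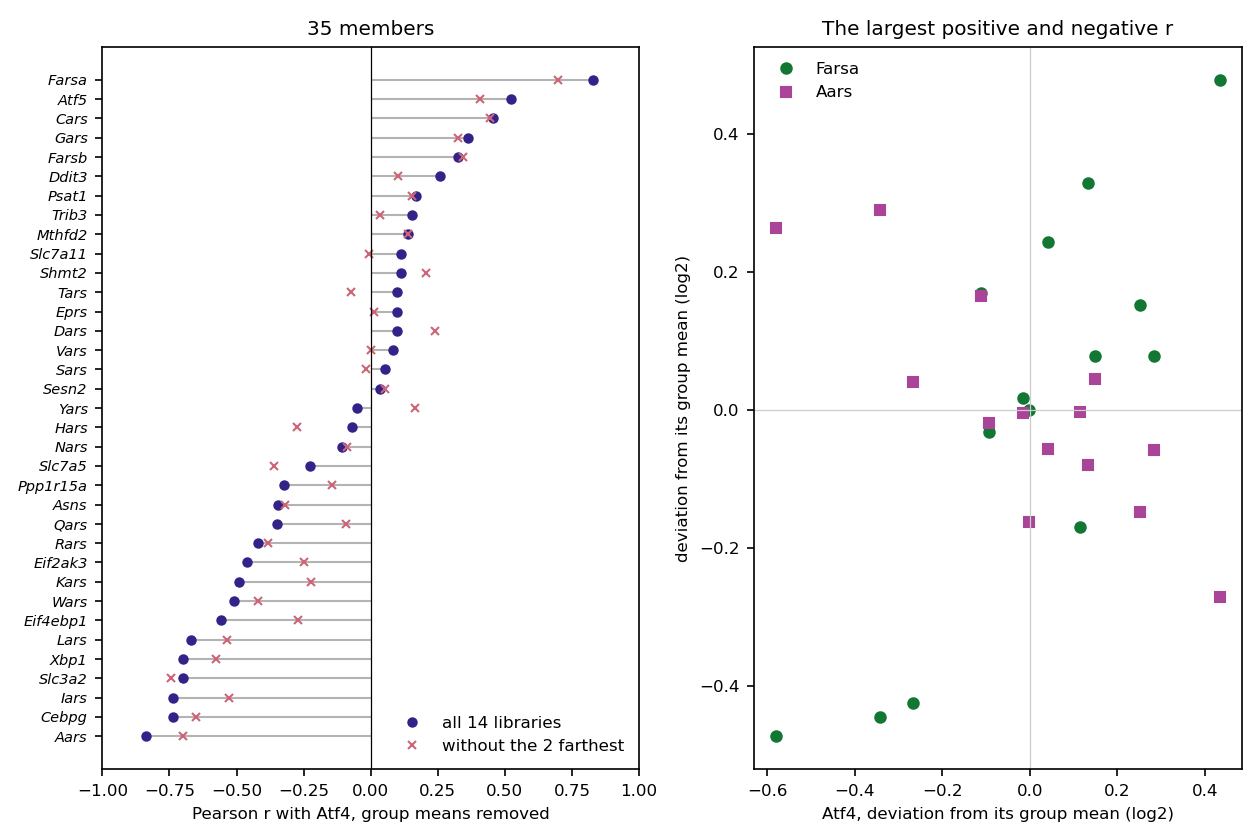
Left, Pearson r with Atf4 across 14 libraries after removal of group means (x axis) for 35 genes (y axis), with all libraries (circles) and without the 2 libraries farthest from the median of the Atf4 deviations (crosses); right, deviations from group means of Farsa and Aars (y axis, log2) against those of Atf4 (x axis, log2), 1 point for each library. Of the 35 values of r, 17 are positive; Farsa lies at 0.83 and Aars at -0.84.

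The differences were also read by the printed motif. Of the 8 kept holders, 0 passed in the mean of both days (limma), where 14.5% of all kept genes passed. A count this small says little about the motif. The median difference of the holders was -0.01, with a range from -0.18 for Yars to 0.32 for Aars. The 18 kept genes whose window lacks the motif, among them Farsa and Eprs, which passed, had a median of -0.04, Atf4 left out. Both medians lie near that of all kept genes, 0.03.

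Other genes of the pathway were taken from lists of textbook names. Of 17 kept sensors and parts of the eIF2 machinery, 1 rose and 0 fell on day 14 and 2 rose and 0 fell in the mean of both days, with medians of 0.23 and 0.15. For this and the lists that follow, 5.1% of all kept genes rose and 5.73% fell on day 14, and 6.73% rose and 7.77% fell in the mean; no list was tested against these shares. Impact, which blocks activation of the amino acid sensor GCN2, lay from 5.40 to 5.86 in DMSO day 14 and from 6.06 to 6.62 in GSK day 14. It rose by 0.61 (SE 0.15; limma adjusted p = 0.0227) on that day. Eif2ak1, the haem-sensing kinase HRI, had a mean difference of 0.42 (SE 0.11; adjusted p = 0.0181). The kinase genes Eif2ak4 (GCN2) and Eif2ak2 (PKR) had mean differences of 0.43 (SE 0.17; adjusted p = 0.0903) and 0.01 (SE 0.14).

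Of 23 further kept genes often named as ATF4 targets, 0 rose and 3 fell on day 14, and 2 rose and 3 fell in the mean of both days, with medians of 0.04 and 0.06. Cebpb, a C/EBP factor of myeloid cells that is also set by many inflammatory signals, showed the largest difference of the list. It lay from 11.03 to 11.70 in DMSO day 8, 10.40 to 10.57 in GSK day 8, 10.79 to 11.39 in DMSO day 14 and 9.59 to 10.13 in GSK day 14, with no overlap on either day. Cebpb fell by 1.14 on the log2 scale on day 14 (SE 0.17, 2.20-fold; limma adjusted p = 0.00271), under each of 28 settings. Gdf15, a stress-induced cytokine, fell by 0.57 (SE 0.13; adjusted p = 0.0136) and the autophagy receptor gene Sqstm1 by 0.69 (SE 0.16; adjusted p = 0.0166) on day 14. The transaminase gene Gpt2 (0.44, SE 0.13; adjusted p = 0.0327) and the mTORC1 inhibitor gene Ddit4 (0.63, SE 0.18; adjusted p = 0.0338), named after its value was seen, rose in the mean of both days, and each call held in 17 of 27 settings. Atf3 (0.19, SE 0.16), Nupr1 (0.23, SE 0.13) and Psph (0.14, SE 0.08) did not pass.

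Of the other cytosolic synthetases and their scaffold proteins, 1 of 6 kept genes rose and 0 fell on day 14. This was Mars, methionyl-tRNA synthetase, which lay from 6.56 to 7.36 in DMSO and 7.51 to 7.77 in GSK libraries of day 14, a difference of 0.59 (SE 0.17; limma adjusted p = 0.0416). The call held in 16 of 28 settings, and Mars shares its locus with Ddit3 on the opposite strand. Of 15 kept mitochondrial synthetases 0 passed on day 14 and in the mean of both days (limma), with 5 and 3 at an unadjusted p under 0.05, against 27.3% and 30.6% of all kept genes, and medians of 0.05 and 0.01. Among 24 kept genes of the other arms of the unfolded protein response, 2 rose and 0 fell on day 14. They were the chaperone gene Dnajb9 (0.59, SE 0.16, limma adjusted p = 0.0343) and the ubiquitin ligase gene Syvn1 (0.68, SE 0.20, limma adjusted p = 0.0414). Each of these calls held in 17 of 28 settings. Of the 24 differences on that day 13 were positive, with a median of 0.01. In the mean of both days 0 rose and 1 fell, Edem1 (-0.44, SE 0.12; adjusted p = 0.0228, a call that held in 20 of 27 settings), which acts in the disposal of misfolded glycoproteins. Hspa5, the central chaperone of the endoplasmic reticulum, had a mean difference of 0.25 (SE 0.14; adjusted p = 0.232). Without GSK day 14 library 4 the day 14 calls of Impact, Gdf15, Sqstm1, Mars, Dnajb9 and Syvn1 were lost, with adjusted p from 0.0681 for Gdf15 to 0.135 for Mars (limma), while that of Cebpb held.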

How the data were processed

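The deposited table holds 1 log2-scale expression value per gene and library, made by the authors with Bowtie2, RSEM 1.2.29 and DESeq2 1.12.4, per the submitters' processing notes, which also name the builds mm10 and GRCh38 without roles. The transformation is not given in the sources used here, and depth is unknown because no counts were used. Symbols and coordinates came from GENCODE M21 on GRCm38, the assembly of mm10, by Ensembl identifier; 24470 of 24556 identifiers matched and 86 did not.

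Kept genes (unlogged value of 10 or more in 3 or more libraries) entered a limma 3.58.1 model in R 4.3.3. It held a mean for each of the 4 groups, used all 14 libraries and moderated variances with a trend on expression. All p-values are two-sided. Adjusted p of this fit carry the Benjamini-Hochberg adjustment across 11886 genes, and an adjusted p under 0.05 passed. Alternatives that change the genes adjust over their own, 24556 with no filter, 8420 with a minimum of 50 and 11870 with the GC trend removed. GSK was compared with DMSO on each day, the mean and the difference of these were taken, and the days were compared in DMSO and in GSK. Intervals are 95% intervals of this fit. Within-group correlations with Atf4 were tested by exact permutation; they were planned with an adjustment over the set and were adjusted over all other kept genes instead. The fit and the permutation test were tested on simulated data. Promoters came from RefSeq on GRCm38.p6; 1 promoter sequence is not reported here.

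The genes and all lists were chosen with earlier results of these data known. Named were all kept genes of the set and, of each pathway list, up to 4 genes with the smallest p among those past the threshold on day 14 or in the mean, and Mars. Where a few others are named, they were chosen after their values were seen: Ddit4, Eif2ak2, Eif2ak4, Atf3, Nupr1, Psph and Hspa5. Alternatives were pseudocounts of 0.1 and 10, no filter, a minimum of 50, unweighted TMM, quantile normalisation, no trend, library weights, a replicate block, only the groups compared, the ribosomal RNA split as a term or as a restriction, the epithelial mean as a covariate and leaving out each library; removal of the GC trend was added after the data were seen.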

Additional observations from a re-analysis of the deposited data

Results flagged for a closer look

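In the day 14 groups of 4 libraries, a highest or lowest library was checked for standing apart from the other 3, by its gap to the nearest library over the range of the group. Of 72 groups tested, 6 (8.33%) passed the critical value of 0.829, where chance passes about 5%. Slc3a2 was lowest in DMSO day 14 library 2, at 10.10 with the next library at 10.39, and highest in GSK day 14 library 4, at 11.06 with the next at 10.84. Both lie away from the other pre-treatment. Eprs was lowest in DMSO day 14 library 4, at 9.12 with the next at 9.40, and highest in GSK day 14 library 4, at 9.69 with the next at 9.48. Eif4ebp1 was lowest in GSK day 14 library 4, at 9.84 with the next at 10.04. Tars was highest in DMSO day 14 library 2, at 7.11 with the next at 6.64, which places that library inside the GSK range of the same day. GSK day 14 library 4 accounts for 3 of the 6 and is also the library with the lowest Atf4 (11.04) and Farsa (9.85).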

How the results depend on the processing

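Of the 35 genes, 0 passed on day 8, 1 with library weights; 0 or 1 passed with 1 library left out. On day 14, where 1 passed, 2 did with a minimum of 50, with unweighted TMM, with quantile normalisation and with the GC trend removed, 3 in the fit of only the groups compared and among libraries with AY036118 high, 6 with library weights and 0 when the ribosomal RNA split entered as a term; leaving out 1 library gave 0 to 4. In the mean of both days, where 3 passed, 1 did with no filter and when the ribosomal RNA split entered as a term, 5 with quantile normalisation, 6 with a minimum of 50, with the epithelial mean as a covariate and among libraries with AY036118 high, and 9 with library weights; leaving out 1 library gave 1 to 6. Besides Farsa, Nars and Eprs, further genes passed in the mean under some settings, the restriction to AY036118 high left aside. Atf5, Mthfd2, Shmt2, Cars and Farsb were lower, and Slc3a2, Aars, Tars and Qars were higher. For the difference between days 0 passed under every setting. Between days in DMSO, where 1 passed, 0 did with no filter, library weights, the replicate block, only the groups compared, AY036118 high only and the epithelial covariate; leaving out 1 library gave 0 to 1. Between days in GSK, where 0 passed, 1 did with a pseudocount of 10 and with the GC trend removed, 2 with a minimum of 50, quantile normalisation and only the groups compared, and 10 with library weights; leaving out 1 library gave 0 to 3. Shares of all genes called moved too. On day 14 (10.8%) they were 16.5% with a minimum of 50, 10.9% with TMM and 9.73% with quantile normalisation. Removal of the GC trend gave 10.5%, only the groups compared 15.8%, the ribosomal RNA term 3.05% and library weights 20.0% (2373 genes, from 1287). In the mean (14.5%) they were 3.87% with no filter, 14.2% with quantile normalisation and 20.6% with a minimum of 50. The ribosomal RNA term gave 5.29%, the epithelial covariate 16.7% and library weights 23.7%. Between days in GSK (7.01%) library weights gave 29.6%. The cause of these shifts was not tested. Within-group correlations gave 0 calls under every setting run, where a gene could not pass alone. Leaving out libraries left fewer arrangements, which made a call harder still to reach. Farsa was lower under every setting, from -1.10 to -0.72 on day 14.

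Deviations of same-numbered libraries correlated from -0.34 to 0.52 (19 pairs, median -0.03), those of other pairs from -0.52 to 0.38 (median -0.02). The medians show no general likeness of same-numbered libraries. Whether the numbers mark a pairing or a shared batch cannot be told from them. With the replicate block, 1 gene passed on day 14, 2 in the mean, Eprs being lost (adjusted p = 0.0666, limma), and 0 between days in DMSO, Cars being lost. Depth could not be weighed.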
